A study of Homo sapiens with 21 samples.

Results

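The 10 noncoding host genes of small nucleolar RNAs described here are GAS5, ZFAS1, SNHG1, SNHG5, SNHG6, SNHG7, SNHG8, SNHG12, SNHG15 and SNHG16. They were taken by name from a fixed list, not by a rule on their measured values. That list was chosen with earlier results of these data known. They are 10 of the 26809 genes that could be named in the RNA data. All 10 are annotated as long noncoding RNAs, and the RNA files list 21 RefSeq transcripts for them. The question put to the data was whether these transcripts followed the ribosomal protein genes when JMJD6, a 2-oxoglutarate-dependent oxygenase, was lost. RNA-seq covered 3 groups of 3 libraries from 786-O cells, a widely used human line that derives from a clear cell renal carcinoma. The sgCtrl group was JMJD6 WT and carried a control guide RNA, and the groups sg2 and sg4 were JMJD6 KO and each carried 1 of 2 guide RNAs against JMJD6. Cells of all 3 groups had been infected with guides and grown in the same medium, and the labels do not say whether the knockout cells were clones or pools. Nor do they say whether the 3 libraries of a group came from separate cultures, so p-values measure the spread between libraries, which may be technical.

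Small nucleolar RNAs guide the chemical modification of other RNAs, chiefly ribosomal RNA. Box C/D members direct methylation of the ribose, and box H/ACA members direct conversion of uridine to pseudouridine. Most human ones lie in introns of a host gene and are released when the spliced-out intron is trimmed, while the spliced exons form the host transcript. Many host genes, coding or not, begin their transcripts with a terminal oligopyrimidine (TOP) tract, a C followed by a run of C and T, which is the hallmark of ribosomal protein mRNAs and couples their translation and stability to mTOR signalling through LARP1. Spliced noncoding host transcripts are short-lived where translation exposes them to nonsense-mediated decay, so their steady level reflects decay as well as transcription.

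RefSeq promoter windows of assembly GRCh38.p14 were at hand for 8 of the 10 genes, with none for SNHG6 and SNHG15. Each printed window has 20 bases before the annotated start and 50 from it on, 5′ to 3′ on the strand of the gene. Capitals mark a C followed by at least 4 pyrimidines, only where this run begins at or near the annotated start. Runs of this kind elsewhere in a window are left in lower case. The first 3 windows are shown because a full tract can be read from the annotated first base on. They belong to SNHG5 (chr6:85678684-85678753, minus strand), ZFAS1 (chr20:49278622-49278691, plus strand) and SNHG12 (chr1:28581824-28581893, minus strand). In SNHG12 the base just before the capitals is also a C. The next pair is shown because the tract lies near the annotated start, in SNHG8 (chr4:118278742-118278811, plus strand) and SNHG16 (chr17:76557744-76557813, plus strand). SNHG1 (chr11:62855836-62855905, minus strand) stands for the genes with none at or near the annotated start.
SNHG5: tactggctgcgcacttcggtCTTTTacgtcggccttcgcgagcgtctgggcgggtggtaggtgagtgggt
ZFAS1: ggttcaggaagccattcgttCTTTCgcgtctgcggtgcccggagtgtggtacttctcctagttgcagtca
SNHG12: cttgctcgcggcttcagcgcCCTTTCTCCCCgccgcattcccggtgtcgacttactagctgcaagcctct
SNHG8: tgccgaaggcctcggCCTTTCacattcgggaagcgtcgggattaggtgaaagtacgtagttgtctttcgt
SNHG16: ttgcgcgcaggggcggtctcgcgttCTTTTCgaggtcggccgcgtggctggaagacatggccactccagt
SNHG1: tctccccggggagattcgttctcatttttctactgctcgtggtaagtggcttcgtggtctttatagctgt

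The search covered the strand of the gene only. A tract at the annotated first base was found in 3 of 8 host genes, in 43 of 63 ribosomal protein genes (68.25%) and in 4.04% of all 27305 genes of the promoter table. With a start of the tract allowed from 5 bases before to 10 bases after the annotated start, the numbers were 6 of 8 host genes, 54 of 63 ribosomal protein genes and 25.83% of all genes. SNHG7 entered with a tract from base −1, SNHG8 with one from base −5 and SNHG16 with one from base 6, counted from 1 at the annotated start with no base 0. GAS5 and SNHG1 had no tract in either search. The annotated first base of GAS5 is an A. In its window, which is not printed, a C followed by more than 4 pyrimidines lies downstream of the bases searched. The search therefore does not show that GAS5 lacks such a tract at its true start. A match describes these letters at the annotated start, and transcript starts were not measured here.

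The 9 RNA libraries held 14224263 to 16300347 estimated counts each. JMJD6, the targeted gene, was at 42.3 ± 1.88 CPM (counts scaled to the size of the library; SD, n = 3) in controls, 16.8 ± 0.651 with sg2 and 12.3 ± 1.91 with sg4. Its log2 fold change in the mean of both guides was −1.56 ± 0.086 (SE), with an edgeR adjusted p of 5.41e-12. Markers of the renal carcinoma line, PAX8 among them, were present in all libraries. Their sum was 7173.5 to 7370.3 CPM in controls, 7518.2 to 7880.5 with sg2 and 7669.5 to 7950.3 with sg4. Most of it was VIM, with 74307 to 89771 counts a library. In the mean of both guides 4 of these 8 markers were called higher and 0 lower, where 6.92% and 6.95% of all genes were. They were KRT18 (0.45, edgeR adjusted p = 5.96e-06), NNMT (0.19), AXL (0.18) and KRT8 (0.16). PAX8 (−0.07) and PAX2 (−0.17) were not called. Of 10 leukocyte and endothelial markers 3 had no count in any library, CD3E and CDH5 among them. The list summed to 54.4 to 68.5 CPM in controls, 45.7 to 52.0 with sg2 and 47.8 to 56.5 with sg4, most of it CD68, with 579 to 932 counts a library. CD68 was called lower in knockouts (−0.28, edgeR adjusted p = 0.0193) and CSF1R, with 30 to 70 counts, higher (0.83, edgeR adjusted p = 0.0113). Fibroblast markers summed to 26.4 to 83.2 CPM in controls, 16.8 to 22.1 with sg2 and 17.6 to 29.5 with sg4, with the highest value in control 1, where COL1A2 had 298 counts. Of the 10 fibroblast markers 5 were tested, and COL1A2, LUM and ACTA2 were called lower with both guides. LUM (−0.97, edgeR adjusted p = 0.00244) and ACTA2 (−0.68, edgeR adjusted p = 0.00115) lay below all controls in all 6 knockout libraries. The part of these marker genes in the host gene results was not tested. With control 1 left out, the calls for both guides averaged were still SNHG5, SNHG6 and SNHG15. In control 3 long transcripts were relatively more abundant, with a slope of 0.0573 log2 units per doubling of transcript length, and in sg4 libraries 2 and 3 less so, with slopes of −0.0385 and −0.0597. These 3 libraries stood apart from the other 6, whose slopes ran from −0.0024 to 0.0164, so results are given with and without them. Without them 1 sg4 library is left, so the sg4 part of the mean of both guides then rests on that library.

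On the TPM scale, which divides counts by transcript length, the host genes spanned a wide range in control cells. SNHG5, host of the C/D RNAs SNORD50A and SNORD50B, was highest at 871 ± 145 TPM (SD, n = 3), followed by SNHG6, host of SNORD87, at 720 ± 40.5 TPM. GAS5, which hosts 10 listed C/D RNAs, followed at 443 ± 40.3 TPM, and ZFAS1, host of the SNORD12 family, at 383 ± 54.4 TPM. SNHG8, host of SNORA24, stood at 282 ± 61.8 TPM, SNHG7, host of SNORA17A and SNORA17B, at 197 ± 24.6 TPM and SNHG1, which carries 8 listed C/D RNAs, at 106 ± 18.9 TPM. The lowest levels were those of SNHG12 at 83.2 ± 10.1 TPM, SNHG16, host of the SNORD1 family, at 57.8 ± 5.47 TPM and SNHG15, host of SNORA9, at 50.5 ± 3.85 TPM. The control ranges of SNHG5 and SNHG6 overlapped, as did those of GAS5 and ZFAS1, of ZFAS1 and SNHG8, and of SNHG16 and SNHG15. The 5 other neighbouring pairs in this order did not overlap. SNHG5 lay above 98.9% of the genes tested and SNHG15 above 74.4%. Together the 10 genes took 0.0512% to 0.0717% of the counts of a library.

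Loss of JMJD6 was followed by higher RNA of SNHG5, SNHG15 and SNHG6, and by no call for the other 7 host genes. In the mean of both guides, 3 of 10 host genes were called higher at an edgeR adjusted p under 0.05, where 6.92% of the 13530 genes tested were called higher, and 0 were called lower, where 6.95% of all genes were. The median log2 fold change was 0.13 over the host genes and −0.01 over all genes tested. In 3 of 10 host genes all 6 knockout libraries lay above all 3 controls, against 7.76% of all genes tested, and in 0 of 10 did they all lie below, as in 7.18% of all genes. These are bulk RNA values, in which a change in the mix of cells and a change of RNA per cell cannot be told apart.

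**Figure D1:**
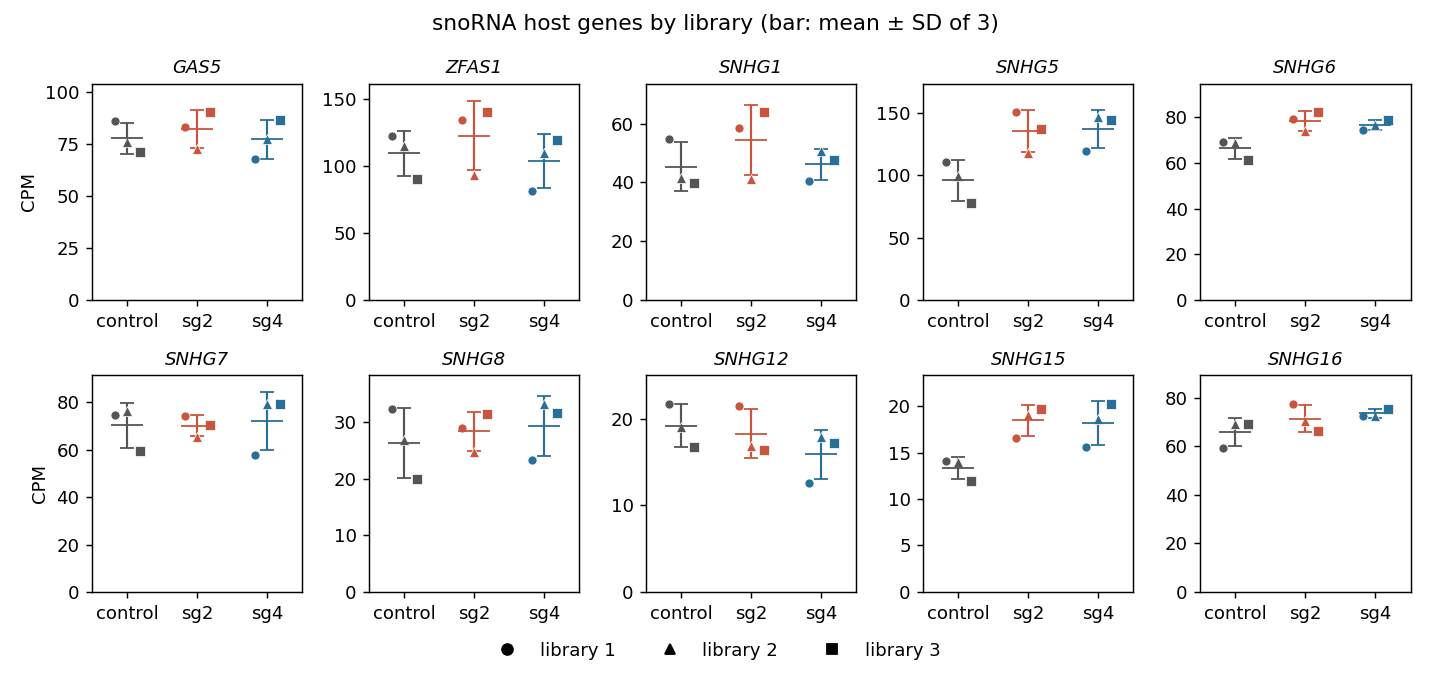
CPM of each host gene (vertical axis, linear, from 0) in the 3 libraries of the control, sg2 and sg4 groups; points are libraries, the long tick is the mean and the bar is the SD. SNHG5, SNHG6 and SNHG15 have all 6 knockout libraries above the 3 controls, and the other panels overlap.

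SNHG5 stood at 110.8, 99.1 and 77.8 CPM in control libraries 1 to 3, at 150.9, 117.8 and 137.4 CPM with sg2 and at 119.6, 146.9 and 144.4 CPM with sg4. The groups did not overlap, though the lowest knockout library was only slightly above control 1. The log2 fold change was 0.51 ± 0.086 (SE) in the mean of both guides, a fold of 1.42, with an edgeR adjusted p of 2.72e-04. It was 0.50 with sg2 (edgeR adjusted p = 0.00143) and 0.51 with sg4 (edgeR adjusted p = 0.00147). On log2(TPM + 1) the value with sg2 was 0.36 and not called (limma adjusted p = 0.0726). SNHG5 was called in the mean of both guides in all 17 alternatives run. Without control 3 and sg4 libraries 2 and 3, which leaves 1 sg4 library, the log2 value was 0.28, and that of sg4 alone was 0.19.

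SNHG15, which carries the H/ACA RNA SNORA9 in an intron, had 14.1, 13.9 and 11.9 CPM in controls, 16.6, 19.0 and 19.7 CPM with sg2 and 15.6, 18.6 and 20.3 CPM with sg4. All knockout libraries lay above all controls. It rose by 0.45 ± 0.108 (SE) on the log2 scale, a fold of 1.37 (edgeR adjusted p = 0.00582), and by 0.47 with sg2 and 0.44 with sg4 (edgeR adjusted p = 0.0155 and 0.0239). With sg2 the call was lost without control 3, sg2 library 2 or sg2 library 3, at 0.39 to 0.44, and with sg4 without control 3, sg4 library 2 or sg4 library 3, at 0.36 to 0.42. In the mean of both guides, without control 3 the value was 0.38 and no longer called (edgeR adjusted p = 0.0521). Without control 3 and sg4 libraries 2 and 3, which leaves 1 sg4 library, it was 0.27.

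SNHG6, the host of SNORD87, had 69.2, 68.5 and 61.2 CPM in controls, 79.1, 73.8 and 82.3 CPM with sg2 and 74.4, 76.5 and 78.9 CPM with sg4. The groups were close but did not overlap. SNHG6 rose by 0.22 ± 0.060 (SE) on the log2 scale, a fold of 1.17 (edgeR adjusted p = 0.0128). The call held with sg2 (0.24, edgeR adjusted p = 0.0231) and not with sg4 (0.21, edgeR adjusted p = 0.0582), though the values with the 2 guides differed by −0.03 (95% interval −0.17 to 0.11). Without control 3 the value was 0.17 and not called (edgeR adjusted p = 0.116), and the call with sg2 was lost without control 3, sg2 library 1 or sg2 library 3, at 0.19 to 0.24. The call in the mean also ended with the trend with length removed (0.06, edgeR adjusted p = 0.565) and on log2(TPM + 1) (0.10, limma adjusted p = 0.177). It ended as well without control 3 and sg4 libraries 2 and 3 (0.15), which leaves 1 sg4 library. SNHG6 overlaps MCMDC2, which had 166 counts over the 9 libraries, and the strand setting of the counting is not given in the sources used here.

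SNHG16, the longest of these transcripts, stood at 59.3, 69.3 and 69.2 CPM in controls, 77.5, 70.3 and 66.3 CPM with sg2 and 72.6, 72.5 and 75.5 CPM with sg4. Of its 6 knockout libraries 5 lay above all controls, and its log2 fold change was 0.14 (95% interval 0.00 to 0.27, edgeR adjusted p = 0.17). SNHG1 ranged from 39.7 to 54.9 CPM in controls, from 41.2 to 64.0 CPM with sg2 and from 40.4 to 50.5 CPM with sg4, and its log2 value was 0.14 (−0.08 to 0.37). With sg2 it was at 0.27 and not called (edgeR adjusted p = 0.18), and became a call of 0.43 without control 1 or without sg2 library 2, and at an unchanged 0.27 with no filter on low counts (edgeR adjusted p = 0.0185). SNHG8 ranged from 20.0 to 32.4 CPM in controls and from 23.3 to 33.3 CPM in the knockouts, at 0.13 (−0.12 to 0.37). In both genes the groups overlapped, and control 3 was the lowest library.

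GAS5, known as a growth arrest transcript whose RNA can bind the glucocorticoid receptor, gave 85.7, 75.9 and 71.0 CPM in controls, 83.3, 72.5 and 90.3 CPM with sg2 and 67.9, 77.2 and 86.3 CPM with sg4. The 3 groups covered almost the same range, and the log2 fold change was 0.04 (95% interval −0.12 to 0.19, edgeR adjusted p = 0.814). ZFAS1, antisense to the start of ZNFX1, gave 122.5, 115.2 and 90.3 CPM in controls, 134.2, 93.5 and 140.3 CPM with sg2 and 81.2, 109.9 and 119.7 CPM with sg4. Its SD with sg2 was 25.4 CPM, and its group means ran from 103.6 to 122.7 CPM. Its log2 fold change was 0.04 (−0.18 to 0.26), and that of SNHG7, with 59.6 to 76.6 CPM in controls and 57.9 to 79.5 CPM in knockouts, was 0.02 (−0.16 to 0.19). GAS5 overlaps ZBTB37, with 287 counts over the 9 libraries, and SNHG7 overlaps DIPK1B, with 275.

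SNHG12, which hosts SNORD99 and 3 H/ACA RNAs and has the longest tract of pyrimidines printed above, was the 1 host gene with a mean below the controls. It had 21.7, 19.0 and 16.8 CPM in controls, 21.5, 16.8 and 16.5 CPM with sg2 and 12.6, 17.9 and 17.2 CPM with sg4. The groups overlapped, and the log2 fold change was −0.17 (95% interval −0.41 to 0.07, edgeR adjusted p = 0.371). With sg4 alone it was −0.27 (−0.55 to 0.01) and not called, where it was called at −0.39 (edgeR adjusted p = 0.0389) when the trend with length was removed, a setting in which 2.9% of all genes were called lower with sg4. Without control 3 and sg4 libraries 2 and 3, which leaves 1 sg4 library that is assumed to vary like the other groups, the value was −0.69 (edgeR adjusted p = 0.049). SNHG12 overlaps TRNAU1AP on the other strand, which had 2318 counts in the 9 libraries, so reads of the pair cannot be told apart if strand was not used.

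By guide, 3 of 10 host genes were called higher with sg2, where 5.0% of all genes were, and 2 of 10 with sg4, where 4.65% were, with 0 called lower by either (5.36% and 3.78% of all genes). SNHG5 and SNHG15 were called with both guides, which share the same 3 controls. Between sg4 and sg2, edgeR called 0 of 10 host genes, 0 had an unadjusted p under 0.05, DESeq2 also called 0, and 0.0591% of all genes were called in either direction. The differences between guides were widest for ZFAS1, at −0.25 (95% interval −0.50 to 0.01), SNHG1, at −0.24 (−0.49 to 0.01), and SNHG12, at −0.20 (−0.48 to 0.08). SNHG5 differed by 0.01 (−0.18 to 0.21) and SNHG15 by −0.02 (−0.27 to 0.22).

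**Figure D2:**
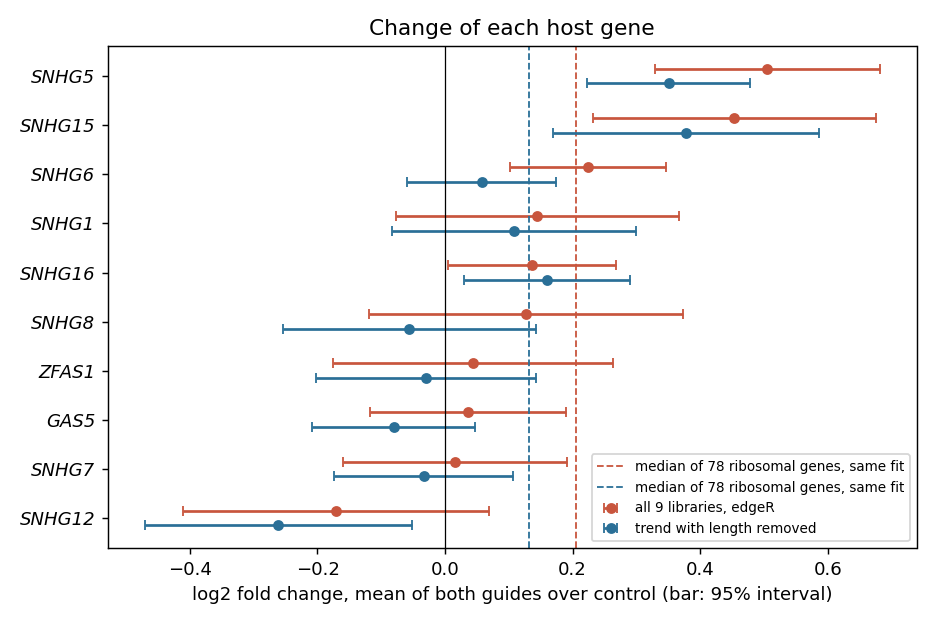
Log2 fold change of each host gene, mean of both guides over control (horizontal axis), with its 95% interval, in the fit of all 9 libraries (red) and after the trend with transcript length was removed (blue); dashed lines are the medians of the 78 ribosomal protein genes tested. SNHG5 and SNHG15 lie to the right of both medians, and SNHG6 moves from 0.22 to 0.06.

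Ribosomal protein genes, which encode the protein part of the ribosome, were called higher in 54 of 78 tested and lower in 0. Of all genes tested 6.92% were called higher and 6.95% lower. The median log2 fold change of the ribosomal protein genes was 0.21. The mRNAs of these genes can share reads with processed pseudogenes. RPS29, at 0.91 ± 0.124 (SE), RPS21, at 0.81 ± 0.080, and RPS27, at 0.68 ± 0.064, had the largest changes among those called with both guides. Their transcripts are short, at 342.9, 396.0 and 351.0 nt. With the trend with length removed their values were 0.68, 0.62 and 0.45. The host genes lay on both sides of this median. Of the 78 ribosomal genes, 5 had a higher value than SNHG5, 8 than SNHG15 and 34 than SNHG6. By the same count SNHG1 was exceeded by 57, SNHG16 by 58, SNHG8 by 60, GAS5 and ZFAS1 by 72 each, SNHG7 by 74 and SNHG12 by all 78. The upper ends of the intervals of GAS5 (0.19), SNHG7 (0.19) and SNHG12 (0.07) were under the ribosomal median, and that of ZFAS1 (0.26) was above it. With the trend with length removed, 8 ribosomal genes exceeded SNHG5, 7 SNHG15, 59 SNHG6, 32 SNHG16, 46 SNHG1 and 73 SNHG8, and 72 to 77 each of the other 4 host genes, so that SNHG6 and SNHG16 changed sides of the ribosomal median. No test of the difference between the 2 lists was made.

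The levels of single libraries show a second feature. Within groups, with each group's mean taken off, the log2 CPM of 9 of the 10 host genes went with the mean of the ribosomal protein genes over the 9 libraries. Pearson's r ran from 0.635 for SNHG1 to 0.956 for SNHG7, with 0.899 for SNHG5, 0.846 for SNHG6 and 0.682 for SNHG15, and was 0.016 for SNHG16. The points share their libraries and scaling, so these values are a description. Control 3 was the lowest control for 9 of 10 host genes, sg4 library 1 the lowest of its group for 9, and sg2 library 2 the lowest of its group for 7, while control 1 was the highest control for 8. The exception in controls was SNHG16, which was lowest in control 1.

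The same deviations also went with the trend with transcript length. The r of the host genes with the length slope of a library, within groups, ran from −0.556 for SNHG1 to −0.974 for SNHG7 and was 0.046 for SNHG16, whose transcripts average 2489.3 nt where the 9 others average 432.7 to 1118.0 nt. For the ribosomal mean it was −0.973. Its part in the shared movement of host and ribosomal genes was not tested.

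**Figure D3:**
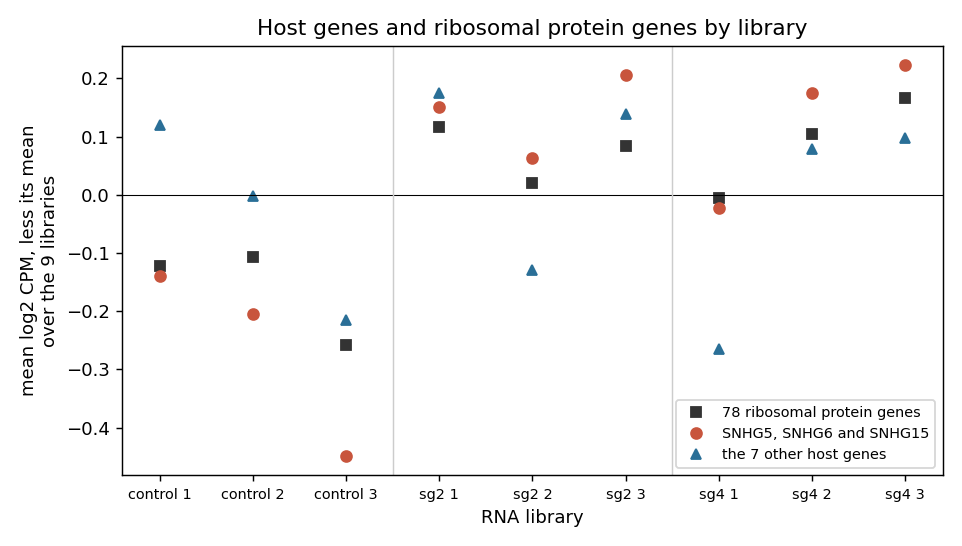
Mean log2 CPM of the 78 ribosomal protein genes, of SNHG5, SNHG6 and SNHG15, and of the 7 other host genes in each of the 9 RNA libraries (vertical axis, as the difference from the mean over the libraries). Control 3 is the lowest control in all 3 sets, and the 7 other host genes range from −0.21 to 0.12 in controls and from −0.26 to 0.18 in the knockouts.

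In the plot of levels by library, the 7 host genes that were not called had their highest mean in sg2 library 1, at 0.18 log2 units above their overall mean, and their lowest in sg4 library 1, at −0.26. Controls 1 and 2, at 0.12 and 0.00, lay inside that span. The ribosomal mean separated the groups, with −0.12, −0.11 and −0.26 in controls and −0.01 to 0.17 in the knockouts. SNHG5, SNHG6 and SNHG15, grouped here because they were called, had −0.14, −0.20 and −0.45 in controls and −0.02 to 0.22 in the knockouts.

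With the per-library trend with length removed, 2 of 10 host genes were called higher, where 8.54% of all genes were, and 0 lower, where 5.74% were. The 2 were SNHG5, at 0.35 (edgeR adjusted p = 2.84e-04), and SNHG15, at 0.38 (edgeR adjusted p = 0.0114), while SNHG6 dropped from 0.22 to 0.06 (95% interval −0.06 to 0.17). With sg4 alone SNHG5 was called and SNHG15, at 0.34, was not (edgeR adjusted p = 0.064), where 5.35% of all genes were called higher. The median of the host genes went from 0.13 to 0.01. The ribosomal protein genes went from 54 to 36 called higher, 1 was called lower (RPS28, at −0.28), and their median went from 0.21 to 0.13. Among the 5254 tested genes with a length in the range of the host genes, 489 were called higher (9.31%) and 238 lower without the correction. SNHG16 sets the upper end of that range, and the median length is 1720.2 nt against 771.0 nt for the host genes. The set is therefore not matched to the shorter host genes. Without control 3 alone, with no correction, 1 host gene (SNHG5) and 35 ribosomal protein genes were called higher. Without control 3 and sg4 libraries 2 and 3, SNHG7 was at −0.25. In that setting the median of the host genes was −0.08 and that of the ribosomal protein genes 0.13. It leaves only sg4 library 1, the lowest of its group for 9 of 10 host genes, so these values are not results of the sg4 group.

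Of the 21 host transcripts, all 21 passed the filter on low counts and 3 were called higher in the mean of both guides, where 4.08% of the 34342 transcripts tested were, with 0 called lower (3.91% of all). These 3 are the single transcripts of SNHG5 (NR_003038, 507 nt), SNHG6 (NR_002599, 472 nt) and SNHG15 (NR_003697, 803 nt). Their counts are those of the genes, so these calls repeat the gene calls. The trend with length was not removed in the fits of transcripts. GAS5, SNHG1 and SNHG12 also have 1 transcript each in these files. ZFAS1 has 5, SNHG16 has 4, and SNHG7 and SNHG8 have 3 each. With sg2 the 502 nt transcript of ZFAS1, NR_036659, was called as well, at 0.53 on the log2 scale (edgeR adjusted p = 0.0393), where 2.81% of all transcripts were called higher. With sg4 it was at 0.11 (edgeR adjusted p = 0.793).

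The make-up of the host RNAs by transcript could be followed in these 4 genes. ZFAS1 was mostly NR_003604 (1006 nt), which made up 55.2% ± 0.789 (SD, n = 3) of its estimated counts in controls, 49.4% ± 2.64 with sg2 and 51.7% ± 0.428 with sg4. This share was lower in all 6 knockout libraries (46.3% to 52.0%) than in the controls (54.4% to 55.9%). The shares of NR_003605 of ZFAS1 (687 nt), NR_034011 of SNHG8 and NR_038108 of SNHG16 were higher in all 6 knockout libraries than in the controls. How many of all transcripts separate in this way was not counted. The trend with length was not removed from these shares, and its part in them was not tested. For NR_003604 edgeR's test of transcript usage gave an unadjusted p of 0.401, so it was not called. SNHG8 was mostly NR_003584 (619 nt), at 69.4% ± 2.22 in controls, 67.1% ± 2.02 with sg2 and 66.0% ± 0.491 with sg4. Its shortest transcript, NR_034011 (274 nt), took 8.42% ± 0.483, 13.0% ± 2.38 and 10.9% ± 1.49 in the same order, on 23 to 72 counts a library.

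SNHG7 was mostly NR_024542 (968 nt), at 65.1% ± 3.55 in controls, 67.8% ± 1.86 with sg2 and 66.7% ± 1.46 with sg4. In SNHG16 the 4 transcripts are close in length, from 2435 to 2538 nt, and the largest, NR_038109, held 35.4% ± 1.17 in controls, 32.5% ± 0.866 with sg2 and 35.0% ± 1.10 with sg4. The test of transcript usage called 0 of these 4 genes, where 0.17% of 7641 genes were called. None of the 4 had an unadjusted p under 0.05: edgeR's test gave 0.211 for SNHG8, 0.284 for SNHG16, 0.358 for ZFAS1 and 0.560 for SNHG7. The error of dividing reads among overlapping isoforms is not in the files and so not in this test.

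**Figure D4:**
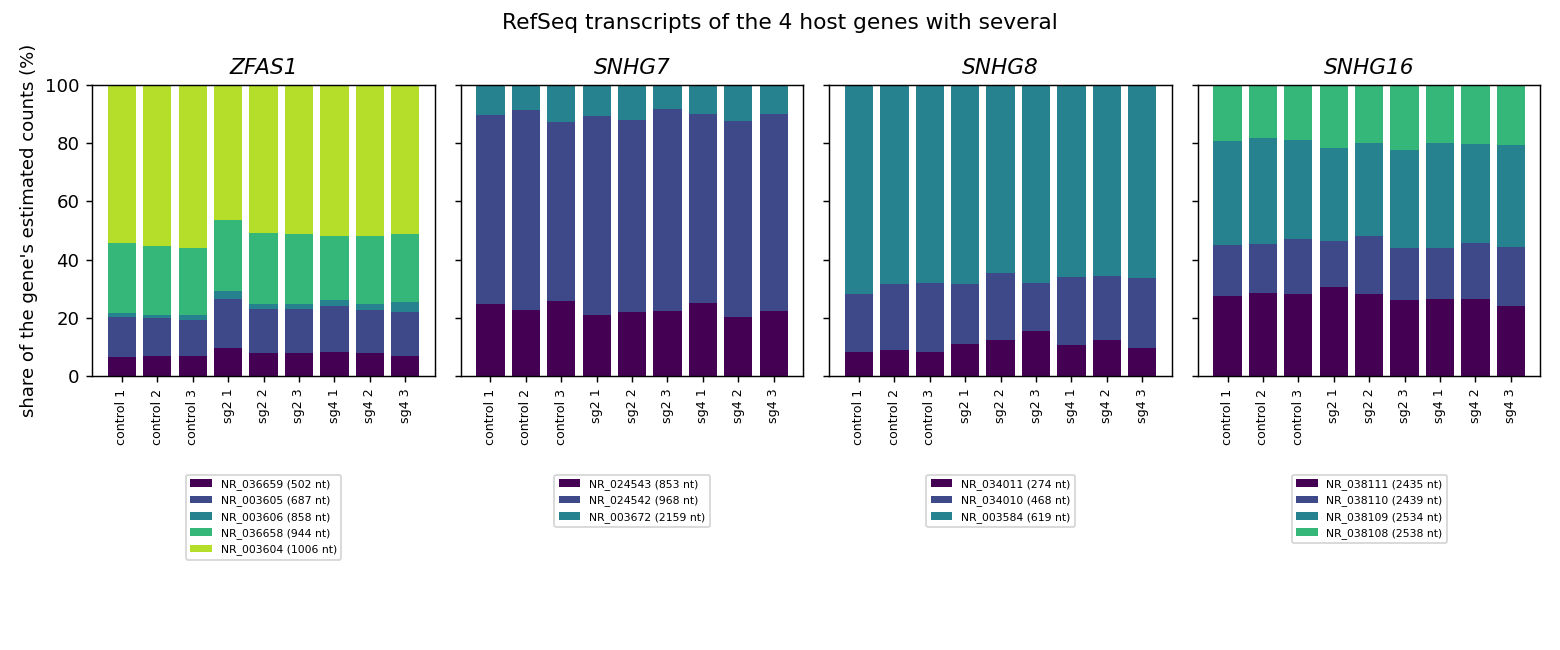
Share of a gene's estimated counts (vertical axis, percent) held by each RefSeq transcript of ZFAS1, SNHG7, SNHG8 and SNHG16 in each of the 9 RNA libraries; colours are transcripts, with lengths in the key. The NR_003604 share of ZFAS1 is 54.4% to 55.9% in controls and 46.3% to 52.0% in the knockouts, and the test of transcript usage called none of these genes.

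Related lists were counted for the same contrast. Of 15 other noncoding host genes 11 were tested, and 1 was called higher (9.09%) and 3 lower, with a median log2 fold change of −0.17, where 6.92% of all genes were called higher and 6.95% lower. EPB41L4A-AS1 rose by 0.41 ± 0.111 (SE), and was called with sg2 (0.56) but not with sg4 (0.27, edgeR adjusted p = 0.207). SNHG3, host of SNORA73 family RNAs, went from 72.5 ± 7.08 CPM in controls to 52.4 ± 5.00 with sg2 and 55.8 ± 4.10 with sg4, and fell by 0.42 on the log2 scale (edgeR adjusted p = 2.35e-04). SNHG30 fell by 0.52 in the mean, and was called with sg2 (−0.79) but not with sg4 (−0.24, edgeR adjusted p = 0.494). DANCR, a differentiation antagonist transcript, fell by 0.27, and was called with sg4 (−0.31) but not with sg2 (−0.24, edgeR adjusted p = 0.0965). SNHG3 lay below all controls in all 6 knockout libraries, so called host genes moved in both directions.

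**Figure D5:**
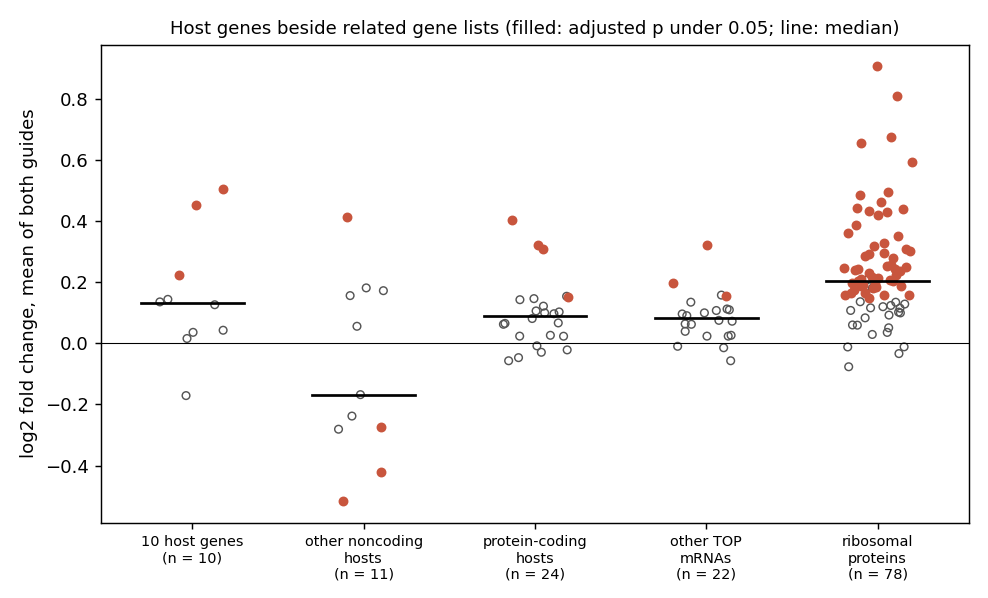
Log2 fold change, mean of both guides over control (vertical axis), of each tested gene of 5 lists; filled points have an edgeR adjusted p under 0.05, and the line is the median of the list. The medians are 0.13 for the 10 host genes, −0.17 for the other noncoding hosts and 0.21 for the ribosomal protein genes.

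Of 24 protein-coding host genes 4 were called higher (16.7%, against 6.92% of all genes) and 0 lower, with a median of 0.09. They were the chaperone gene HSPA8 (0.40 ± 0.077), the elongation factor gene EEF1B2 (0.32 ± 0.052), DKC1 (0.31 ± 0.056), which encodes the pseudouridine synthase of H/ACA particles, and NCL (0.15 ± 0.043), which encodes nucleolin and was not called with sg4 alone. Of 22 mRNAs other than ribosomal ones that are known for a TOP tract, 3 were called higher (13.6%, against the same 6.92%) and 0 lower, with a median of 0.08. These were EEF1B2, NPM1 (0.20) and EIF3E (0.16), with 5 of the list called higher with sg2 and 1 with sg4. A tract at the annotated start was found in 13 of the 16 with a sequence.

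Genes that act on small nucleolar RNAs or on their host transcripts were counted against the same shares of all genes. Of 17 genes for proteins of small nucleolar RNA particles and their assembly, 3 were higher (17.6%) and 0 lower: DKC1, the assembly factor gene ZNHIT6 (0.26 ± 0.062) and SNU13 (0.17), whose protein binds C/D RNAs and which was called with neither guide alone. Of 17 genes of nonsense-mediated decay, 1 was higher (5.88%), RBM8A (0.23 ± 0.057), which encodes a subunit of the exon junction complex, and 0 were lower. Of 17 genes known to act on TOP mRNAs, LARP4 (0.22) and SSB (0.17) were higher (11.8%), both called with sg2 and not with sg4, and RPTOR, the mTOR complex subunit, was lower (−0.23 ± 0.054). LARP1 was at 0.03 (edgeR adjusted p = 0.719).

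Calls were also split by the tract at the annotated start. Among 589 tested genes with a tract 74 (12.56%) were called higher and 6.45% lower, and among 10323 tested genes without one 6.69% and 6.82%. Ribosomal protein genes made up 32 of the 74. Without them 42 of 546 genes with a tract (7.69%) were called higher and 6.96% lower, against 6.57% and 6.83% of the 10303 without one. Among ribosomal protein genes 32 of 43 with a tract and 14 of 20 without were called higher. Of the 3 host genes with a tract, SNHG5 was called higher while ZFAS1 and SNHG12 stood at 0.04 and −0.17. Of the 5 host genes with a sequence and no tract at the start, 0 were called. The tract and the calls among the host genes rest on too few genes for a comparison.

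Among the 11270 genes compared, those whose log2 CPM over the 9 libraries was most like the mean of the standardised host gene levels were RPL27A (r = 0.963) and CNPY2 (r = 0.956). RPL27A encodes a protein of the large ribosomal subunit. In the mean of both guides RPL27A was called higher at 0.21 (edgeR adjusted p = 0.0208), and CNPY2, at 0.09, was not called (edgeR adjusted p = 0.398). The measure of likeness takes in movement within groups as well as between them.

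The files also list 35 small nucleolar RNAs encoded by these 10 host genes, from 60 to 134 nt long, and 0 of the 35 had a count in any library. The levels above are those of the spliced host transcripts, and the small nucleolar RNAs themselves were not measured by these libraries.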

How the data were processed

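RNA of 9 libraries (3 each of sgCtrl, sg2 and sg4) was used. Per the file headers, the deposited Salmon tables hold 60422 RefSeq transcripts with estimated counts, and with TPM, which the authors' tool divides by effective length and scales to a fixed sum. All deposited estimated counts were whole, and how they were rounded is not given in the sources used here, nor are the annotation and the strand setting. Other tools in the submitters' processing notes are STAR 2.5.2b, cutadapt 1.12 and DESeq2, with builds hg19 and GRCh37 and no role or order. The 6 peak lists and 6 inputs were not used here. The labels' treatment text describes siRNA, the titles and extraction text guides, and the titles were followed.

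Of the transcripts 58031 (96.04%) matched RefSeq genes of GRCh38.p14, used for names, and 1.33% to 1.65% of a library's counts were unmatched. Counts were summed per gene and tested in R 4.3.3 with edgeR 4.0.16 (limma 3.58.1 for TPM): quasi-likelihood test, TMM, filterByExpr (13530 genes kept), 1 fit of all 9 libraries, 2-sided, Benjamini-Hochberg adjusted p under 0.05 over all genes. Transcript usage was tested with diffSpliceDGE. The trend with length was removed by a loess offset (span 0.5) of each library's log2 ratio on log2 length. TPM was tested as log2(TPM + 1), and DESeq2 1.42.0 was an alternative. The tests were checked on simulated data. Named besides the host genes were JMJD6, up to 3 genes a list with the largest change among those called with both guides in 1 direction (mean log2 CPM 2 or more), and the 3 genes most alike, of which 2 are given and 1 is not reported here; the other called genes of short lists, RPS28 and LARP1 were named with their values known. The host genes and lists were chosen with earlier results of these data known.

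No pairing by the replicate numbers of the titles was seen in the data. Correlations of the deviations of same-numbered libraries ran from −0.141 to 0.052, and those of differently numbered ones from −0.08 to 0.122. These values cannot show whether same-numbered libraries were prepared together. No 2 libraries of a group agreed within sampling noise (chi-square per degree of freedom from 3.287 to 6.591).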

Additional observations from a re-analysis of the deposited data

How the results depend on the processing

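Calls are by adjusted p under 0.05. In the mean of both guides, SNHG5 kept its call in all alternatives run, and the host genes called were 3 with DESeq2, with RLE size factors, without a filter and with a replicate block, and 2 (SNHG6 lost) with the length trend removed, with or without a block, and on log2(TPM + 1).

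Settings that moved a count by over 1.5 times were these; the cause was not tested. Without control 3 and sg4 libraries 2 and 3, which leaves fewer samples, 1116 genes were called in place of 1877 for the mean of both guides, 358 against 1141 with sg4 and 0 against 8 between guides, with 1 host gene against 3 with sg2 and 24 ribosomal genes against 54. On log2(TPM + 1), with no count model, 866 genes against 1402 were called with sg2, 1 between guides, 1 host gene with sg2 (SNHG15) and 21 ribosomal genes. Without a filter 72 genes and 1 host gene (ZFAS1, lower with sg4) were called between guides and 6 host transcripts in the mean of both guides; DESeq2 called 38 genes between guides. No pairing by the titles' replicate numbers was seen in the data. The replicate block gave 2 genes between guides. Its counts of 1527 genes in the mean of both guides and of 52 ribosomal genes stayed within 1.5 times. The length trend removed with replicate block, chosen after seeing the data, gave 1 host gene with sg4 and 33 ribosomal genes.

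With each library left out in turn, calls ran from 938 to 1878 genes (mean of both guides), 735 to 1595 (sg2), 606 to 1227 (sg4) and 0 to 49 (between guides). Host genes ran from 1 to 3, 1 to 4 and 1 to 2 for the first 3 of these, ribosomal genes from 35 to 61, transcripts from 1232 to 2692, host transcripts from 2 to 5 and usage from 5 to 23 genes. Counts fell by over 1.5 times without control 1 (938 genes for both guides averaged, 735 for sg2 and 619 for sg4, and 1232 transcripts), control 3 (1045 genes in the mean of both guides, 626 with sg4, 1473 transcripts, 35 ribosomal genes, and 1 host gene in the mean and with either guide), sg2 library 1 (777 genes with sg2), sg2 library 2 (864), sg2 library 3 (1 host gene with sg2), sg4 library 2 (1 host gene with sg4) and sg4 library 3 (606 genes and 1 host gene with sg4). Without sg2 library 2 the host transcripts called rose to 5.

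Values near 0 of host genes that were not called changed sign. With the length trend removed GAS5 was at −0.081 (mean of both guides) and −0.012 (sg2), ZFAS1 at −0.030, SNHG1 at −0.034 (sg4), SNHG7 at −0.034 (−0.039 with sg4) and SNHG8 at −0.056 (−0.056 with either guide). The replicate block added to this gave −0.084 and −0.016 for GAS5, −0.037 for ZFAS1, −0.026 for SNHG1 (sg4), −0.032 and −0.039 for SNHG7 and −0.054 for SNHG8 (−0.055 with sg2, −0.053 with sg4). Without the 3 libraries named above the values were −0.11 for GAS5, −0.25 for ZFAS1, −0.039 for SNHG1 (−0.25 with sg4), −0.25 for SNHG7 (−0.39 with sg4) and −0.20 for SNHG8 (−0.060 with sg2, −0.35 with sg4). On TPM they were −0.062 and −0.024 (sg2) for GAS5, −0.052 for SNHG1 (sg4) and −0.064 for SNHG7 (−0.061 with sg4).

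Leaving out 1 library gave −0.023 to 0.12 for GAS5 (−0.097 to 0.083 with sg4), −0.076 to 0.14 for ZFAS1 (−0.20 to 0.076 with sg4), −0.064 to 0.19 for SNHG1 (sg4), −0.089 to 0.089 for SNHG7 (−0.11 to 0.062 with sg2, −0.069 to 0.18 with sg4), −0.037 to 0.30 for SNHG8 (−0.059 to 0.28 with sg2, −0.014 to 0.33 with sg4) and −0.20 to 0.032 for SNHG12 (sg2). Among all single-gene values 695 kept direction and side of the threshold, 39 lost a call, 6 gained one in the same direction and 59 changed sign. Of these SNHG7 became a call without the 3 libraries named above, in a fit with 1 sg4 library. The host genes with the fewest counts were SNHG15 and SNHG12, with 168 to 347 a library.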
